A study of Mus musculus with 2 samples.

Results

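Circadian clock core genes are the subject here: 10 genes (Arntl, Clock, Npas2, Per1, Per2, Per3, Cry1, Cry2, Dbp and Ciart), taken by symbol from the 55536 genes of the tables. Their levels, their difference between animals and the transcripts that carried them were measured in total RNA of the adrenal gland of female mice. The mice came from a cross of 5xFAD, which carries human transgenes of familial Alzheimer's disease under the neuronal Thy1 promoter, with CAST, a wild-derived strain, and were 8 to 10 months old. The labels place both libraries in 1 group and give no untreated or wild-type control. Neither the time of day at which the glands were taken nor the lighting schedule is given in the sources used here, and carriage of the transgenes by each animal was not checked.

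Mouse 1 and mouse 2 are biological replicates 1 and 2 of the labels, which give them separate biosamples but the same donor identifier, so that they are separate animals rests on the replicate numbers and their differences may be technical. The gene tables held 36558609 and 32192201 expected counts in genes, in that order. Cortex and medulla were present, with all 8 steroidogenic cortex markers and all 6 chromaffin cell markers measured in both mice. Adipocyte markers were also measured, 11 of 11, with a summed level of 1553 TPM in mouse 1 and 2632 TPM in mouse 2. Kidney markers summed to 0.43 and 0.29 TPM, with 2 of 5 (Slc34a1 and Umod) listed at 0 in both. In bulk tissue, fewer cells of a type and less RNA per cell cannot be told apart.

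The mammalian clock is a feedback loop of transcription. BMAL1, the protein of Arntl, pairs with CLOCK or its relative NPAS2 and binds E-box elements in DNA, which switches on the Per and Cry genes. Their proteins return to the nucleus and repress BMAL1-CLOCK, so that the cycle takes about a day. Dbp and Ciart are E-box targets as well: DBP is a transcription factor that acts through D-box elements, and CIART (CHRONO) is a repressor of BMAL1-CLOCK. Transcripts of many E-box targets, Dbp among them, and of Arntl peak at opposite phases in most tissues. The adrenal clock is known for its part in the daily rhythm of glucocorticoids.

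The genes stood in a wide order of levels. TPM, the unit of the tables, is scaled to transcript length and so can be compared between genes. A mean ± SD below is over both mice (n = 2). Dbp led at 92.7 ± 19.5 TPM, followed by Per1 at 34.2 ± 0.247 TPM, Cry2 at 16.8 ± 0.233, Per2 at 16.2 ± 3.38, Clock at 10.5 ± 0.757 and Per3 at 6.73 ± 1.27 TPM. The least abundant were Arntl at 2.79 ± 0.0495, Cry1 at 2.37 ± 0.700, Ciart at 1.41 ± 0.523 and Npas2 at 0.26 ± 0.0424 TPM. Of the 9 pairs of neighbours in this order, 2 overlapped between mice and so did not differ beyond their spread, Cry2 with Per2 and Arntl with Cry1. A second quantification of the same libraries, made from the reads and a transcript index, gave overlapping ranges for Cry1 and Ciart too. Among 22015 nuclear protein-coding genes, Dbp ranked 607 in mouse 1 and 461 in mouse 2, and Npas2 ranked 13958 and 13811.

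**Figure D1:**
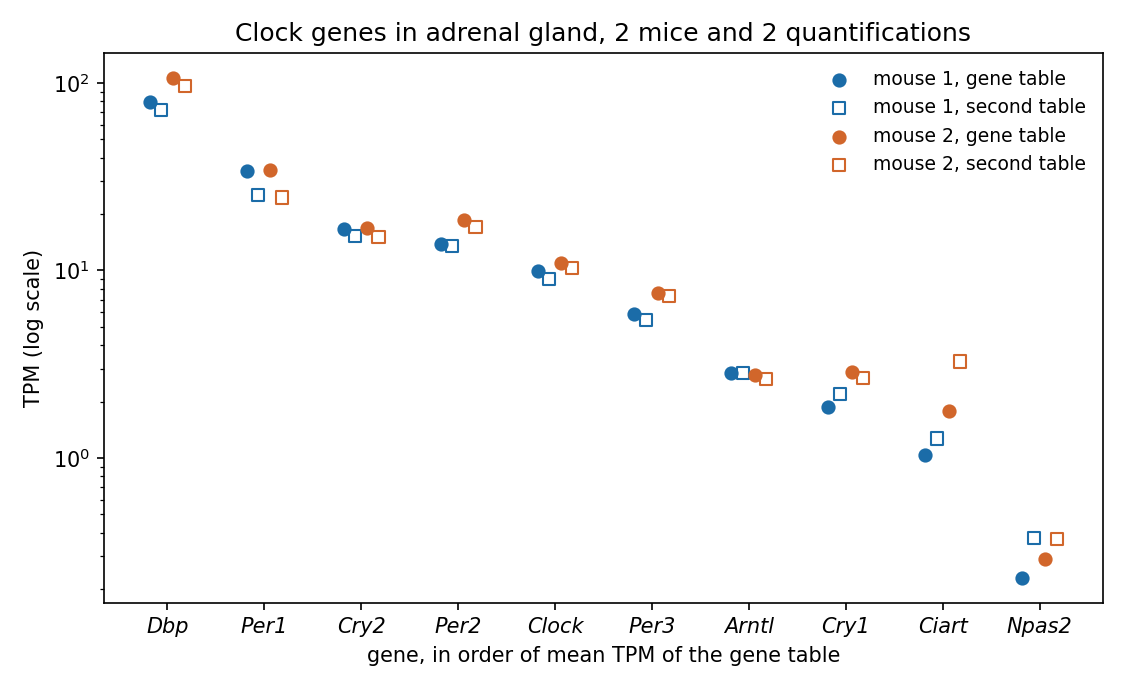
TPM of the 10 clock genes on a log scale, in order of mean TPM, with mouse 1 in blue and mouse 2 in orange, filled circles for the gene table and open squares for the second quantification. Dbp lies highest and Npas2 lowest in every series, and Ciart of mouse 2 shows the widest gap between quantifications, 1.78 against 3.27 TPM.

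The difference between the mice was measured on counts, since TPM depends on library composition. Nuclear protein-coding genes held 29.6% of mouse 1's TPM and 32.5% of mouse 2's. The log2 ratio of mouse 2 over mouse 1 was taken for the 17666 genes whose mean count was 10 or more, which included all 10 clock genes. Of these, 6 lay above 0, beside 49.8% of all genes tested, and their median was 0.05 beside -0.0011 for all genes. The median absolute log2 ratio was 0.18 for the clock genes and 0.13 for all genes. For all genes with a mean count of 1000 or more, it was 0.08. At least 25% apart (the higher over the lower mouse, 0.32 on the log2 scale) was 1 clock gene, Ciart, beside 22.0% of all genes, with Per3 just short of it. None was 2-fold apart, beside 2.96% of all genes.

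An exact binomial test asked which genes differed beyond counting noise, with Benjamini-Hochberg adjustment over all 17666 genes at 0.05. It compares these 2 libraries, not conditions, and its p-values hold no spread between animals. Higher in mouse 2 were 4 clock genes (Dbp, Per2, Per3 and Ciart), beside 10.4% of all genes tested. Lower was 1, Per1, beside 11.0%. The test calls abundant genes more often. Where the mean count was 1000 or more, a range that holds 6 of the 10 clock genes (Dbp, Per1, Per2, Per3, Clock and Cry2), 19.0% of genes were higher and 18.2% lower by the same test. Of these 6, 3 were higher and 1 lower.

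**Figure D2:**
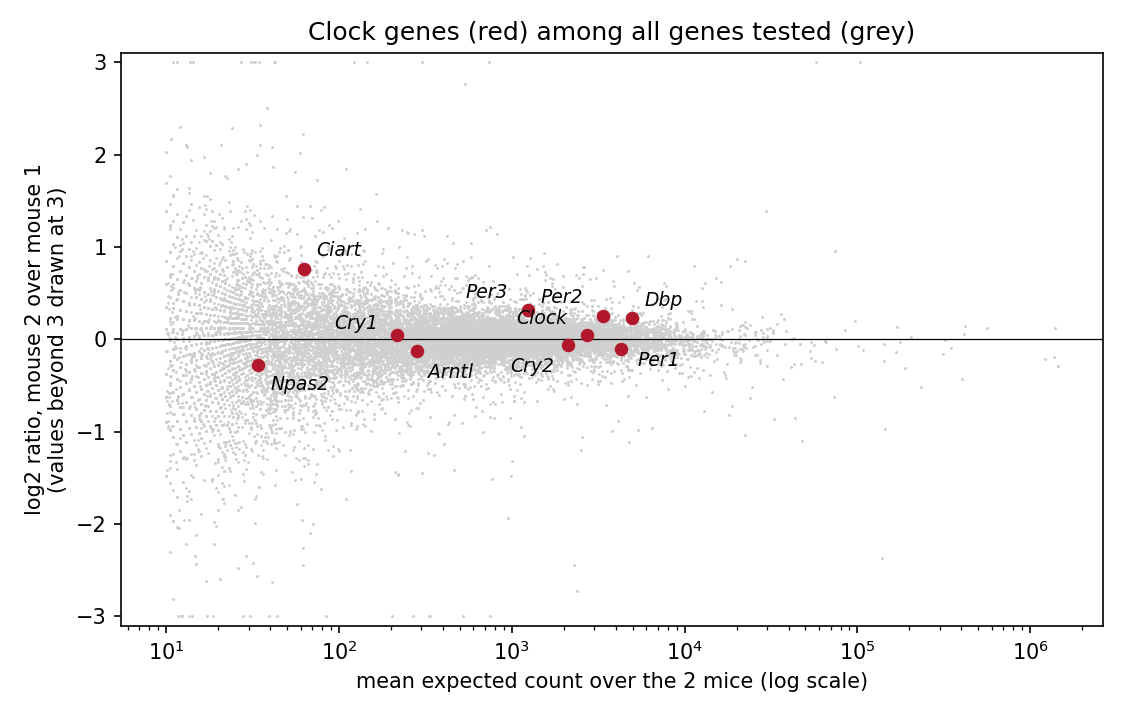
Log2 ratio of mouse 2 over mouse 1 (vertical axis, values beyond 3 drawn at 3) against the mean expected count (log scale), for 17666 genes in grey and the 10 clock genes in red. Of the clock genes, Ciart lies highest at 0.76 and Npas2 lowest at -0.28.

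None of the 3 activators differed beyond counting noise. Arntl (chromosome 7, 113207465 to 113314126, plus strand, mm10), whose protein pairs with CLOCK or NPAS2, had 310 counts in mouse 1 and 258 in mouse 2. Its TPM was 2.83 and 2.76. Its log2 ratio was -0.13 with a 95% counting interval of -0.37 to 0.11, so a difference was not detectable at this depth (exact binomial test, adjusted p = 0.52). Clock (chromosome 5, 76209868 to 76304792, minus strand), which also has histone acetyltransferase activity, had 2802 and 2640 counts, or 9.96 and 11.03 TPM, and its interval of -0.03 to 0.13 includes 0 (exact binomial test, adjusted p = 0.43). Npas2 (chromosome 1, 39193731 to 39363236, plus strand), best known from the forebrain, had 39 and 29 counts, which gave the widest interval of the 10 genes, -1.04 to 0.44. Its TPM was 0.23 and 0.29 in the gene table, opposite in direction to its counts, and 0.373 and 0.371 in the second quantification.

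Within each mouse, Clock stood 43.3 and 38.03 times above its relative Npas2 in TPM, and 24.1 and 27.8 times in the second quantification. Clock also exceeded its partner Arntl in TPM, 3.52 times in mouse 1 and 4.00 times in mouse 2. These ratios lie within a library and do not depend on the scaling between mice. The RefSeq promoter table (GRCm38.p6, 250 bases before to 50 after each start) held windows for 9 of the 10 genes, 13 windows in all. All windows hold the letters of that reference genome, and alleles of the CAST strain were not examined. Arntl is known to be controlled through elements bound by the ROR and REV-ERB receptors. The core of such an element, searched as TAGGTCA on both strands, was found in 1 clock gene, 31 bases after a start of Arntl, and in 2.61% of all 32851 windows. Binding of the receptors at this match was not tested. Capitals mark the match (chr7:113207530-113207558, plus strand).
Arntl: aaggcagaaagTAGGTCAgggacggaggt

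The PER genes, which encode the repressors whose build-up sets the pace of the loop, did not share a direction. Per1 (chromosome 11, 69095217 to 69109960, plus strand) had 4633 counts in mouse 1 and 3928 in mouse 2. Its log2 ratio was -0.10, with an interval of -0.17 to -0.04 (exact binomial test, adjusted p = 0.0069). This call was lost when counts were scaled to library totals (log2 ratio -0.05, adjusted p = 0.21 by the same test). Per2 (chromosome 1, 91415982 to 91459324, minus strand) had 3215 and 3495 counts, a log2 ratio of 0.25 with an interval of 0.19 to 0.32 (exact binomial test, adjusted p = 1.52e-11). Per3 (chromosome 4, 151003652 to 151044665, minus strand), which is dispensable for the core rhythm in mice, had 1158 and 1313 counts, and it was 1.24-fold higher in mouse 2 with a log2 interval of 0.20 to 0.43 (exact binomial test, adjusted p = 1.13e-06). The intervals of Per2 and Per3 overlap each other and lie wholly above that of Per1.

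On the TPM scale the direction of Per1 differed between tables. Its TPM was 34.1 in mouse 1 and 34.4 in mouse 2 in the gene table, a ratio of 1.01 against a ratio of scaled counts of 0.931, and 25.1 and 24.5 in the second quantification. Per2 stood at 13.8 and 18.6 TPM, and Per3 at 5.83 and 7.63 TPM. Per1 therefore stood 2.47 times above Per2 in mouse 1 and 1.86 times in mouse 2, while Per2 over Per3 was 2.36 and 2.43. The second quantification gave 1.86 and 1.43 for Per1 over Per2 and 2.48 and 2.35 for Per2 over Per3, so its order between mice was the same for the first pair and the opposite for the second.

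Promoter windows of this family are shown for the elements that tie it to the loop. The E-box was searched as CACGTG on both strands. It occurs in 7.15% of all windows and in those of 3 clock genes, Per1, Cry1 and Ciart. The D-box, through which DBP acts, was searched as TTATGTAA on both strands. It occurs in 0.938% of windows and, among the clock genes, in Per3 alone, which holds 2 copies, 205 and 158 bases before its start. A match is a description of the letters, not a shown site, and no match says only that these letters are not in this window. The E-box of Per1 lies 166 bases before a start inside the gene span given above, not before the first base of that span. Capitals mark the E-box of Per1 (chr11:69098763-69098808, plus strand) and the D-boxes of Per3 (chr4:151044796-151044890, minus strand).
Per1: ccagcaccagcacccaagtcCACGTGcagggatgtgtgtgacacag
Per3: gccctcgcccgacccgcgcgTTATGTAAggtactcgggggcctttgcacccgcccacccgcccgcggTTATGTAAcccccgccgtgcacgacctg

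The CRY genes encode the main repressors of BMAL1-CLOCK. Cry1 (chromosome 10, 85131700 to 85185064, minus strand) had 224 counts in mouse 1 and 211 in mouse 2, with a log2 ratio of 0.05 and an interval of -0.23 to 0.33 (exact binomial test, adjusted p = 0.87). Cry2 (chromosome 2, 92403646 to 92434043, minus strand) had 2267 and 1983 counts, and its interval of -0.15 to 0.03 includes 0 (exact binomial test, adjusted p = 0.39). No difference between the mice was detectable for either gene at this depth. Cry2 exceeded Cry1 in TPM 8.84 times in mouse 1 and 5.91 times in mouse 2.

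In the second quantification Cry2 exceeded Cry1 6.99 times in mouse 1 and 5.63 times in mouse 2. The tables spread reads over Cry1 transcripts differently, and the part of this in the ratios was not tested. Cry1 stood at 1.88 TPM in mouse 1 and 2.87 in mouse 2, a TPM ratio of 1.53 on nearly equal counts. The effective length that TPM divides by was 2926 bases in mouse 1 and 2240 in mouse 2. In mouse 2, 8.06 counts on the short retained-intron model Cry1-204 made up 21.1% of its TPM, against 0 in mouse 1. The second quantification gave Cry1-204 a like share in each, 22.5% and 19.2%, and placed Cry1 at 2.18 and 2.68 TPM. The 2 mice were closer in that table than in the first.

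Both CRY windows hold the E-prime-box, a weaker relative of the E-box searched as CACGTT on both strands and present in 4.68% of all windows. Cry1 holds an E-box as well, 60 bases before its start and 19 bases from its E-prime-box (first base to first base). Capitals mark these elements in Cry1 (chr10:85185089-85185153, minus strand) and Cry2 (chr2:92434210-92434255, minus strand).
Cry1: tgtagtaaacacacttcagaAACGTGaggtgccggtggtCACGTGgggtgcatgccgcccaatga
Cry2: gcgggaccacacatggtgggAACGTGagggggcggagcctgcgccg

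Dbp and Ciart, the outputs of the loop, were both higher in mouse 2. Dbp (chromosome 7, 45705088 to 45710203, plus strand) had 4818 counts in mouse 1 and 5151 in mouse 2, or 78.9 and 106 TPM. Its log2 ratio was 0.23 with an interval of 0.17 to 0.29 (exact binomial test, adjusted p = 5.67e-14). Set against Arntl, from the opposite phase of the loop, Dbp stood 27.9 times higher in TPM in mouse 1 and 38.6 times in mouse 2, and 25.4 and 36.6 times in the second quantification. The 3′ end of Dbp overlaps that of Sphk2 on the opposite strand over 539 of its 2993 exon bases. Sphk2 had 1386 and 1108 counts, and whether strand was used in counting is not given in the sources used here.

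Ciart (chromosome 3, 95878503 to 95882251, minus strand) showed the largest ratio of the 10 genes on few counts, 49 in mouse 1 and 77 in mouse 2. It was 1.70-fold higher in mouse 2, with a log2 ratio of 0.76 and an interval of 0.25 to 1.33 (exact binomial test, adjusted p = 0.019). Its TPM was 1.04 and 1.78 in the gene table and 1.27 and 3.27 in the second quantification, where its log2 ratio of counts was 1.00. Ciart was the only clock gene 1.5-fold apart between quantifications in mean TPM, by 1.57 times, beside 7.13% of genes of at least 1 TPM. That gap was present in mouse 2 and did not reach 1.5-fold in mouse 1. It was also the only member with a deposited posterior SD of its count above 0, 0.2 and 0.37 counts, a measure of how far reads could belong to other genes as well.

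The Ciart window is shown because it holds the most elements of the 9 genes with an entry. It has 3 E-boxes, 116, 58 and 44 bases before its start, marked by capitals (chr3:95882247-95882364, minus strand). The last 2 lie 14 bases apart, counted from first base to first base. The window of Dbp held none of the motifs searched, and the cAMP response element, searched as TGACGTCA on both strands, occurred in no window of the clock genes and in 1.79% of all.
Ciart: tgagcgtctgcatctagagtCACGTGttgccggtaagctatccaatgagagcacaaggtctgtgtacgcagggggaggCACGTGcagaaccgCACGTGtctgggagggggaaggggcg

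Further genes of the clock were read from a list of 21. Of these, 13 lay above 0, beside 49.8% of all genes tested, and 8 below, with a median log2 ratio of 0.03. Values of single genes given without a unit are log2 ratios of counts, mouse 2 over mouse 1. By the binomial test 6 were higher in mouse 2 (Nr1d1, Nr1d2, Tef, Bhlhe40, Bhlhe41 and Csnk1d), beside 10.4% of all genes tested. Lower were 3 (Rora, Nfil3 and Timeless), beside 11.0%. Among all genes with a mean count of 1000 or more, 19.0% were higher and 18.2% lower. That range does not hold all of the 21, and of the genes called, Bhlhe41, Nfil3 and Timeless lie below it. The call of Csnk1d was lost under 1 of 5 other scalings or quantifications, and the other 8 calls held under each of the 5.

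REV-ERB and ROR receptors form the second loop, in which REV-ERB proteins repress Arntl and ROR proteins activate it. Nr1d1, which encodes REV-ERB alpha and is itself an E-box target, had 5422 counts in mouse 1 and 6011 in mouse 2, a log2 ratio of 0.28 with an interval of 0.23 to 0.34. Nr1d2 stood at 0.13. Rora, an activator of this loop with 12041 and 9781 counts, stood at -0.17, while Rorb, at 57 and 47 counts, was not resolved. In level Rora stood at 50.4 ± 1.32 TPM, beside 62.8 ± 15.4 TPM for Nr1d1.

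The bZIP factors act on D-boxes, DBP and its relatives TEF and HLF as activators and NFIL3 as a repressor. Tef stood at 0.24 and Hlf at 0.13, the latter with an interval that includes 0. Nfil3 had 505 counts in mouse 1 and 315 in mouse 2, a log2 ratio of -0.54 with an interval of -0.75 to -0.34. In TPM, Dbp stood 12.3 times above Nfil3 in mouse 1 and 21.4 times in mouse 2, with 11.98 and 21.4 times in the second quantification.

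The bHLH repressors Bhlhe40 and Bhlhe41, which compete for E-boxes, stood at 0.29 and 0.32. Arntl2, the relative of Arntl, was at 0.72 ± 0.170 TPM, with 61 and 43 counts, and at 1.91 TPM in the second quantification. Of 4 kinases of clock proteins, which lay between -0.04 for Gsk3b and 0.11 for Csnk1e, Csnk1d at 0.09 passed the test. Among the ubiquitin ligases and the deubiquitinase Usp2, none of 5 passed the test, at log2 ratios between -0.15 and 0.07. Timeless, better known for its part in DNA replication in mammals, stood at -0.40, while its partner Tipin stood at 0.05. The level of Timeless was 2.12 TPM in the gene table and 4.48 TPM in the second. By level, the 5 most abundant of the 21 were Csnk1a1 at 70.8 ± 5.63 TPM, Nr1d1, Rora, Fbxw11 at 37.7 ± 0.106 TPM and Csnk1d at 36.6 ± 4.33 TPM.

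**Figure D3:**
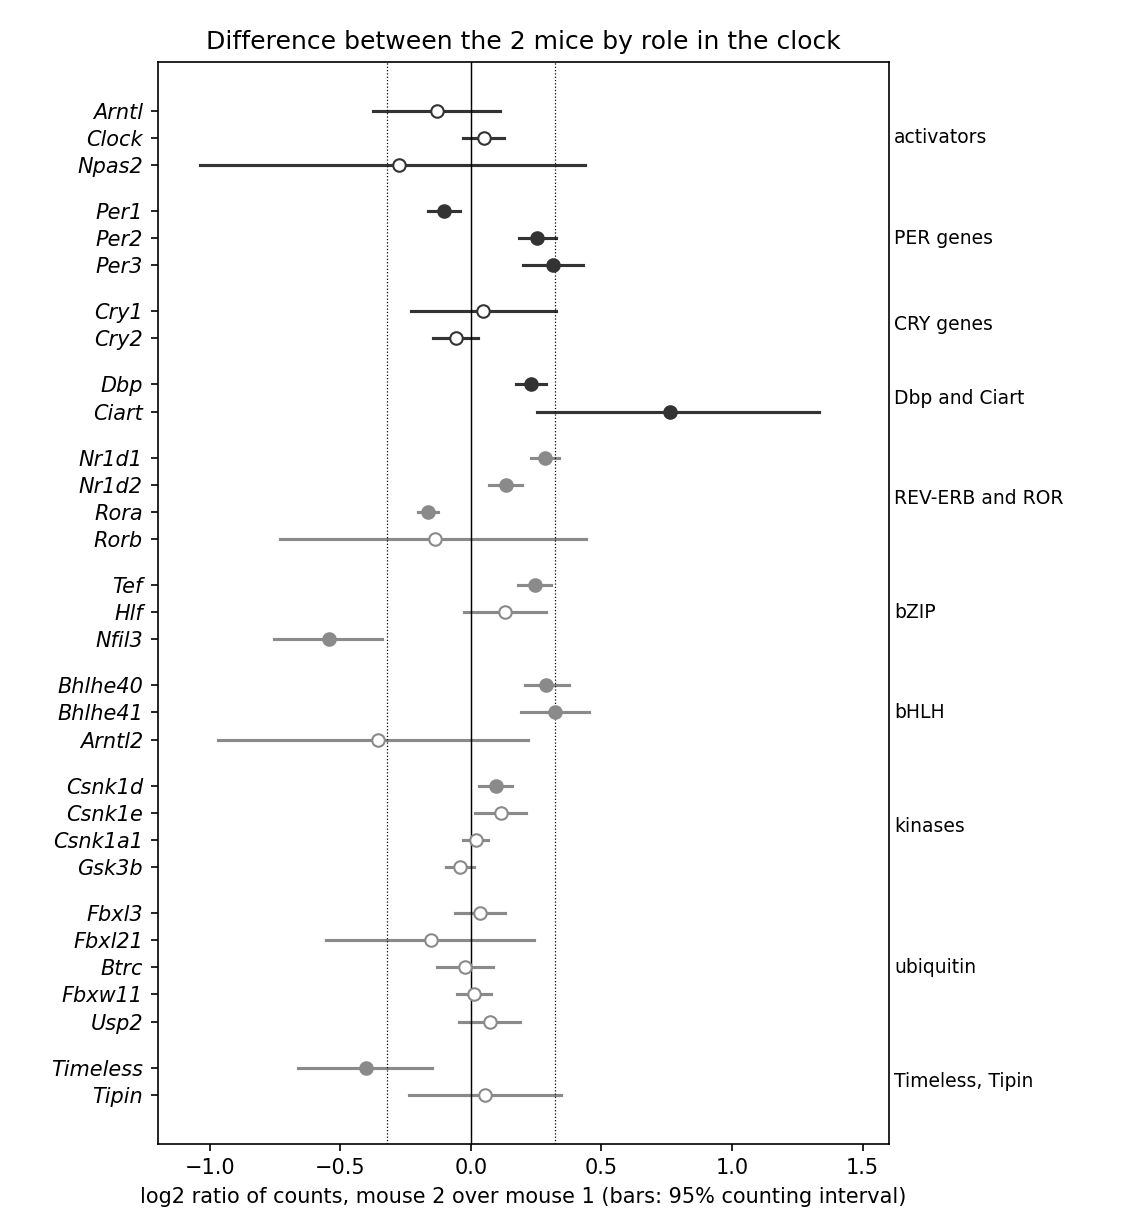
Log2 ratio of counts, mouse 2 over mouse 1, for the 10 core genes (dark) and 21 further clock genes (grey) by role, with 95% counting intervals; filled points passed the binomial test and dotted lines mark 25% apart. Per2, Per3, Dbp, Ciart, Nr1d1, Tef and the bHLH repressors lie to the right, and Nfil3 and Timeless to the left. The intervals of the activators and CRY genes include 0, with Npas2 at -0.28.

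Lists that could bear on these genes were read beside them. Per1 is also induced as an immediate early gene, through cAMP signalling, and by glucocorticoids. All 19 immediate early genes lay below 0, with a median of -0.70, 14 of them lower by the test, beside 11.0% of all genes tested. Of the 2 most abundant, Nr4a1 had 23797 and 12293 counts and Jun 8594 and 6461. Under total count scaling 2 of the 19 lay above 0, and in the second quantification 1 did. Glucocorticoid targets went both ways, 4 above and 6 below 0 with a median of -0.06. By the test 2 were higher and 4 lower, beside 10.4% and 11.0% of all genes tested. For genes with a mean count of 1000 or more those shares were 19.0% and 18.2%. Mt1 stood at -0.44 and Mt2 at -0.63. The part of either group in the value of Per1 was not tested.

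Adipocyte markers lay above 0, 11 of 11 with a median of 0.74, led in level by Cfd at 0.33 and Fabp4 at 0.61. By the test 10 of them were higher, beside 10.4% of all genes tested. Chromaffin cell markers lay below 0, 6 of 6 with a median of -0.22, though 1 lay above under total count scaling. Steroidogenic cortex markers had a median of -0.08 with 2 of 8 above 0. Endothelial and macrophage markers had medians of 0.07 and 0.07. Red blood cell genes had a median of -0.99, all 5 below 0. Levels of the clock genes in each cell type were not measured in this bulk tissue. The part of cell composition in the ratios of Dbp, Per2, Per3 and Ciart was not tested. Of 7 output genes that cycle in many tissues, 5 lay above 0, beside 49.8% of all genes tested, with a median of 0.07. With scaling to the ERCC spike-ins, or among nuclear protein-coding genes alone, 4 lay above 0. Bhlhe40 and Usp2 are also among the further clock genes, and Tsc22d3 among the glucocorticoid targets. Tspan4 at 0.20, Coq10b at 0.17 and Bhlhe40 passed as higher, beside 10.4% of all genes tested. Nampt at -0.09 passed as lower, beside 11.0%, a call lost under total count scaling.

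**Figure D4:**
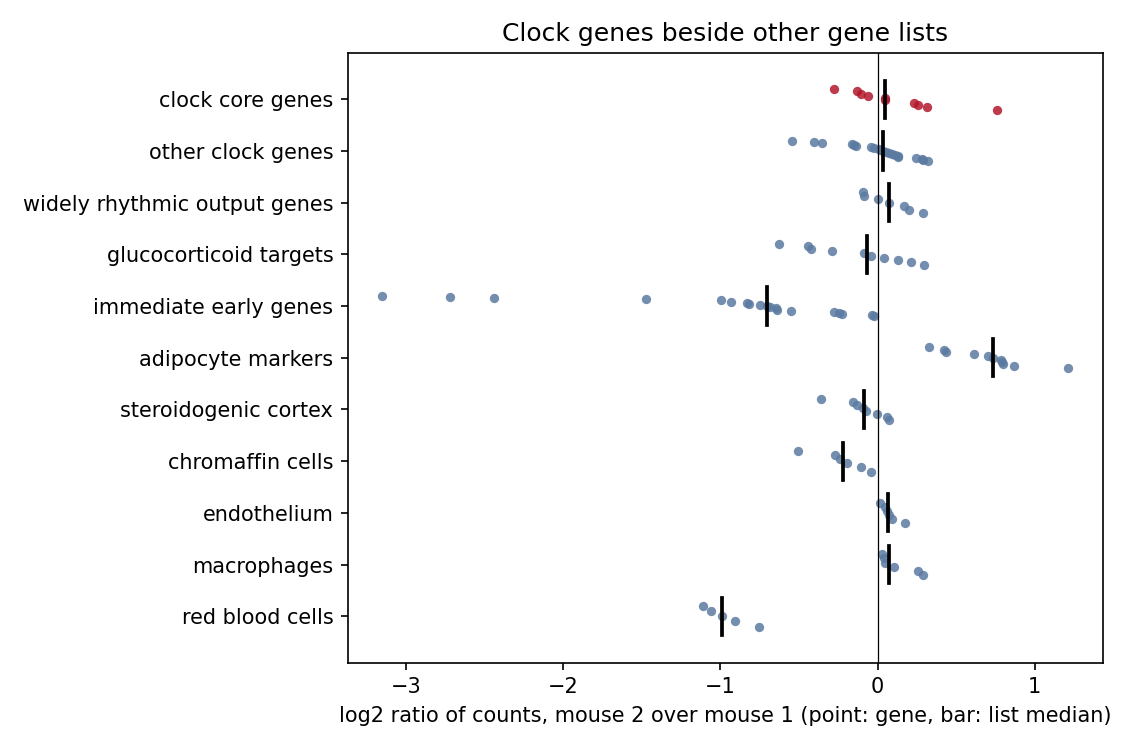
Log2 ratio of counts, mouse 2 over mouse 1, for each gene (point) of 11 lists, with the list median as a black bar. Bhlhe40, Usp2 and Tsc22d3 are drawn in each list that holds them. The clock core genes, in red, range from -0.28 to 0.76 around a median of 0.05, while immediate early and red blood cell genes lie to the left and adipocyte markers to the right.

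The clock genes have 47 annotated transcripts in all, of which 29 are annotated as protein coding, and not all of them held counts. The deposited transcript percent, the part of a gene's TPM on each transcript, named a leading transcript that was protein coding for all 10 genes. Per2 was the simplest, with Per2-201 at 100% in both mice. Cry2-201 held 73.3% in mouse 1 and 85.1% in mouse 2, Arntl-201 71.0% and 82.5%, Per3-201 59.6% and 73.9%, and Per1-201 55.7% and 62.9%. Dbp-201 held 58.7% and 54.6%, and the shorter coding Dbp-204 28.5% and 29.6%. In 8 of the 10 genes the second quantification named the same leading transcript in each mouse, the exceptions being Clock and Ciart.

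For Clock, the leading transcript differed between tables. Clock-205, of 9744 bases, led in the first at 43.5% and 41.1%, and Clock-201, of 7478 bases, at 47.7% and 49.5% in the second. Clock-204 went from 4.15% in mouse 1 to 13.2% in mouse 2, and from 8.77% to 14.1% in the second quantification. Clock-206, a retained-intron model, held 11.2% and 7.0%. The tables thus differ on which long coding model holds most of Clock.

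The other transcripts of Per1 were also placed differently. Per1-204, a coding model of 496 bases, took 24.3% and 22.5% of TPM on 133 and 101 counts in the first table, and 0.44% and 0% in the second. Per1-202 held 17.6% and 12.3%, and 17.8% and 15.4% in the second. The gene as a whole averaged 34.2 TPM in the first table and 24.8 TPM in the second, the largest shift among the 6 most counted clock genes.

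Retained-intron models, which keep an intron and code for no full protein, held parts of 5 clock genes. Per3 held 28.3% in mouse 1 and 24.8% in mouse 2, on Per3-202 at 16.7% and 13.3% and Per3-205 at 11.5% and 11.5%. The second quantification gave Per3 23.8% and 24.8%. Clock held 19.3% and 12.2%, Arntl 16.6% and 10.7%, Dbp 6.77% and 11.3%, and Cry1 0% and 27.0%. Libraries of total RNA also hold unspliced RNA whose reads can fall on such models, and its part in these shares was not tested. Cry2-202, a shorter coding model, held 16.7% and 8.54%.

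Scarce genes gave shares on few counts. Npas2-203 held 27.8% in mouse 2 on 1 count, against 0% in mouse 1, with the rest on Npas2-201. Ciart-201 led Ciart at 53.2% and 53.9%, followed by Ciart-202 at 21.5% and 28.6%. Ciart-203 took 25.3% in mouse 1 on 2.93 counts and 0% in mouse 2, and Ciart-205 0% and 17.5% on 5.22 counts. In the second quantification Ciart-201, at 24.4% and 21.03%, led in neither mouse. There Ciart-203 led in mouse 1 at 31.7%, and Ciart-205 in mouse 2 at 32.1%.

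**Figure D5:**
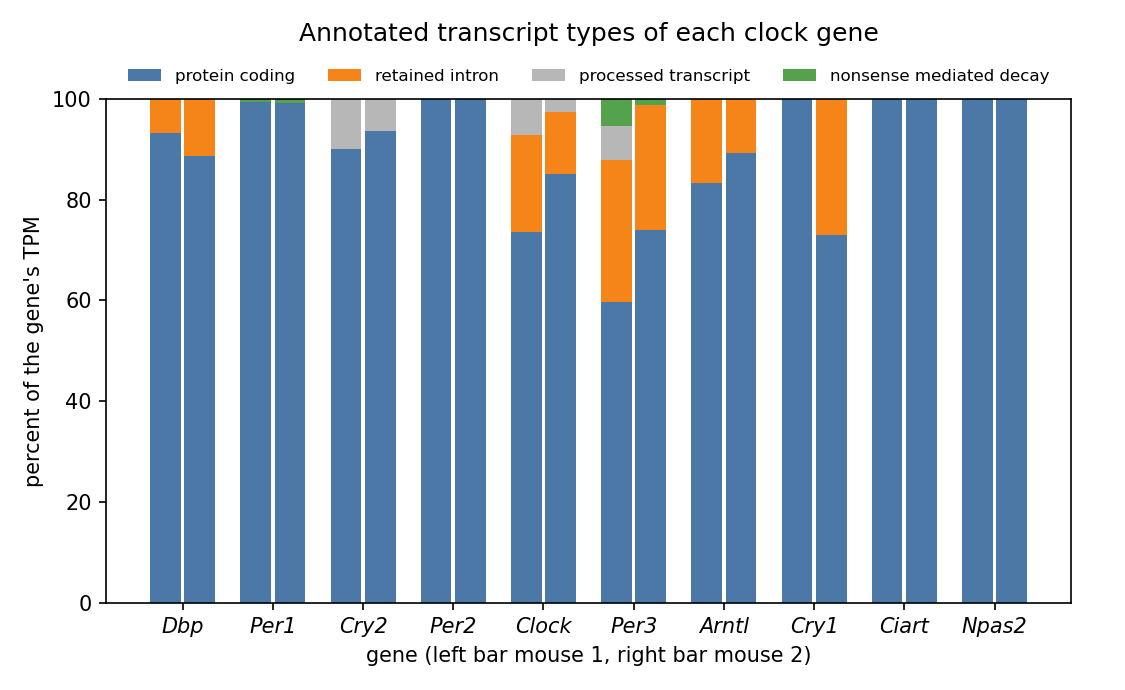
Percent of each clock gene's TPM on transcripts annotated as protein coding (blue), retained intron (orange), processed transcript (grey) and nonsense mediated decay (green), with mouse 1 on the left and mouse 2 on the right of each pair. Per1, Per2, Ciart and Npas2 are at least 99% coding, while the lowest coding shares are those of Per3 in mouse 1, 59.6%, and of Cry1 in mouse 2, 73.0%. In the second quantification, which is not drawn, Npas2 was 66.45% coding in mouse 1 and 100% in mouse 2. Per1 was 91.98% and 97.63% coding there.

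With 2 mice, a likeness between the patterns of genes would rest on 1 difference, so no gene was named for likeness to the clock genes.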

How the data were processed

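Total RNA of 2 adrenal glands, 300 ng each, was made into directional, ribosomal RNA-reduced libraries with ERCC spike-ins, per the labels. Per the deposited text files, tables use mm10 with GENCODE M21; the programs used for alignment and quantification were not named in those sources. The authors deposited expected counts, TPM, FPKM and percent of each gene per transcript from transcriptome alignments, with a posterior SD of each count as a signal of ambiguity in the deposited gene tables, and a second transcript table of estimated counts and TPM made from the reads. The members and lists were chosen with earlier results of these data known. Of the further clock genes, 1 is not reported here.

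Expected counts were rounded for the binomial test, and ratios used TMM scaling in edgeR 4.0.16 (R 4.3.3), prior count 2 and a mean of at least 10 counts. Rows that name no gene (0.503% and 0.527% of counts) were left out. Intervals are exact (Clopper-Pearson, 95%), cover counting error only, and hold no spread between animals. A count of 0 allows up to 0.0821 and 0.0932 CPM. For genes, the second table's transcripts were added up, and TPM plus 0.1 was compared. The genes named were all 10 members, further clock genes at least 25% apart or among the 5 of highest TPM, the 2 highest members of marker lists, and transcripts that led or held 10%; other genes named passed the test or bear on a result, and these were picked with their values in view. The ratio and test were tried on simulated data over all 17666 genes, for mouse 2 against mouse 1, with counting noise only: of 50 genes changed by 25%, 44% passed the binomial test, and of 50 changed 2-fold, 78% did. Of 17466 left unchanged, 0.0286% passed, and counting noise put 10.8% at least 25% apart. Python 3.11.15, pandas 2.3.3 and scipy 1.17.1 served for other steps.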

Additional observations from a re-analysis of the deposited data

How the results depend on the processing

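No paired analysis was possible because the 2 mice form 1 group. All 10 clock genes kept the sign of their log2 ratio under each of the other scalings, quantification, prior count and filters that tested them, and the calls of Dbp, Per2, Per3 and Ciart held in each; Per1 lost its call under total count scaling alone. The clock genes at least 25% apart numbered 2 under total count scaling (Ciart and Per3), 2 in the second quantification (Ciart and Npas2) and 0 at a mean of at least 100 counts, where Ciart was not tested. Genes at least 25% apart numbered 2324 among nuclear protein-coding genes, 10941 without a count filter and 1174 at 100 counts; those at least 2-fold apart numbered 253, 2656 and 65. Those filters change how many genes enter, as does the one behind the 2306 genes beyond counting noise at a mean of 1000 counts or more, chosen after seeing the data. The clock genes 1.5-fold apart between quantifications numbered 0 with a pseudocount of 1, and 0 to 1 with each mouse left out.

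In level, the second quantification moved 6 of the 10 genes past 1 SD, 4 down and 2 up, 3 in FPKM, all up, and 10 when rescaled to nuclear protein-coding genes, all up, since these change the scale. Of the leading transcripts, 5 shares moved in the second quantification, 4 down and 1 up. Below about 100 counts, as in Ciart and Npas2, depth limits both ratios and transcript shares.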
